A study of Mus musculus with 6 samples.

Results

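A set of 9 genes of epithelial cells were followed in brown adipose tissue (BAT) of mice that lack miR-22. They are *Tjp3* and *Tjp1*, *Cdh1* and *Epcam*, *Krt8*, *Krt18* and *Krt79*, *Grhl3*, and *Scgb3a1*, which make 9 of the 23462 genes with a probe on the array. *Tjp3*, *Grhl3*, *Krt79* and *Scgb3a1* were selected on these same arrays for their large difference between the genotypes, so that their values are a description and carry no test. *Tjp1*, *Cdh1*, *Epcam*, *Krt8* and *Krt18* were listed as relatives or as usual markers of epithelium. BAT was taken from 8-week-old male mice, 3 WT and 3 miR-22 KO, and the RNA of each mouse was hybridized with 1 dye (Cy3) to 1 Agilent mouse array. The KO is constitutive and no Cre is named for it, so that the loss of miR-22 was not limited to adipocytes. The strain is not given in the labels. The question asked of the arrays was whether the epithelial genes shifted together or apart.

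Epithelial cells form sheets that are sealed by tight junctions and held together by adherens junctions and desmosomes. *Tjp1* and *Tjp3* encode ZO-1 and ZO-3, scaffolds under the membrane that tie claudins and occludin to actin. *Cdh1* encodes E-cadherin, the adhesion receptor of adherens junctions, and *Epcam* encodes a surface adhesion protein of most epithelia. *Krt8* and *Krt18* form the keratin filament pair of simple epithelia, and *Krt79* is a keratin known from hair follicles and the ducts of sebaceous glands. *Grhl3* is a Grainyhead-like transcription factor needed for the skin barrier, and *Scgb3a1* encodes a small secreted protein of airway epithelium. Brown adipocytes are mesenchymal cells and are not joined into such sheets.

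The 9 genes did not share a direction, although 4 of them were selected for their difference and this is a description. *Tjp3*, *Krt79* and *Scgb3a1* were lower in each KO mouse than in every WT mouse, *Grhl3* and *Krt18* were higher in each KO mouse, and *Tjp1* overlapped between the genotypes. *Cdh1*, *Epcam* and *Krt8*, the markers most often used for epithelium, were at or near the background of the arrays. The labels give the samples as tissue, while the text deposited on the design speaks of a flow separation, and whether whole tissue or sorted cells were used is not clear. In either case fewer cells of a type and less RNA per cell cannot be told apart.

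The deleted microRNA is shown because its seed, bases 2 to 8 from the 5′ end and here in capitals, is the part that pairs with targets. Both arms of the hairpin are given from RefSeq on GRCm38.p6.
miR-22-3p, chr11:75463772-75463793, plus strand: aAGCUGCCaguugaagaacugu
miR-22-5p, chr11:75463734-75463755, plus strand: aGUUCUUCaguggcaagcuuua

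The 250 bases before the start of the genes that differed most between the genotypes, and of *Krt18*, are shown with 1 form of the E-box in capitals, CAGGTG or its reverse complement CACCTG, the form bound by repressors of the Snai and Zeb families. Each run reads 5′ to 3′ toward the gene (RefSeq, GRCm38.p6). *Tjp3* has 2 listed starts, and the run before the outer one is printed.
*Tjp3*, chr10:81291582-81291831, minus strand: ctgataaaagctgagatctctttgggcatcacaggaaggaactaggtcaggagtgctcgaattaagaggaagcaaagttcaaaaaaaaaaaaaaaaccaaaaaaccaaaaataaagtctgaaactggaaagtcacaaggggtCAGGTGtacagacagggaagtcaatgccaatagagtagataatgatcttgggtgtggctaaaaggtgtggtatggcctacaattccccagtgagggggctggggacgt
*Grhl3*, chr4:135573633-135573882, minus strand: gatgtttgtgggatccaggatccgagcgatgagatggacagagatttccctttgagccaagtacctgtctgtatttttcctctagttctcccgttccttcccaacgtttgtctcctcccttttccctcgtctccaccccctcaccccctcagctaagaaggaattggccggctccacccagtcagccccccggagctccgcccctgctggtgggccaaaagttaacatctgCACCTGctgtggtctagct
*Krt79*, chr15:101940325-101940574, minus strand: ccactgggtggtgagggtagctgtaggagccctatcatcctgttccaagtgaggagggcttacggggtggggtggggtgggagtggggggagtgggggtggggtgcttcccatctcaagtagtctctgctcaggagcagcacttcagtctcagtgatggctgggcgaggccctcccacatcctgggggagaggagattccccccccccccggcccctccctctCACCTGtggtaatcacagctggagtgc
*Scgb3a1*, chr11:49663345-49663594, plus strand: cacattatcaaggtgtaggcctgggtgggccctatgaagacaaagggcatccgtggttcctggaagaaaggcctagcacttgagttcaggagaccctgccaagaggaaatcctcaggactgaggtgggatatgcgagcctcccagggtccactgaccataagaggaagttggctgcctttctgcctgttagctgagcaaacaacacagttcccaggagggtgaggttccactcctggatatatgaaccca
*Krt18*, chr15:102027966-102028215, plus strand: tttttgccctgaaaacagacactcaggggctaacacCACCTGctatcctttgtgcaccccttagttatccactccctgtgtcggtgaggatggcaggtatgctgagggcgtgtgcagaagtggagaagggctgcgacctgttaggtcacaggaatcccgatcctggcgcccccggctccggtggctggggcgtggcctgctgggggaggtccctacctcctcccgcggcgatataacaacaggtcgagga

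Windows from 250 bases before to 50 bases after a start were listed for 8 of the genes, all but *Cdh1*, in 9 windows. An E-box of this form lay in the windows of 6 of the 8 genes and in 7 of the 9 windows, against 20.2% of the 32851 windows of all genes. It was present in genes that were lower in KO mice and in genes that were higher. In *Tjp3* its first base lay 108 bases before the outer start and 17 bases before the inner one. In *Grhl3* it lay 19 bases before the start and again at base 9 of the transcript, and in *Krt79* 27 bases before the start. *Krt18* held it 214, *Krt8* 111 and *Epcam* 187 and 19 bases before the start, while the windows of *Scgb3a1* and *Tjp1* did not hold these letters. The Grainyhead motif AACCGGTT, searched on both strands, was in none of the 9 windows and in 0.146% of all windows. The TATA box letters TATAAA were in the window of 1 of the 8 genes, *Krt8*, against 13.6% of all windows, and the GC box GGGCGG was in those of 3, *Tjp1*, *Epcam* and *Grhl3*, against 35.7%. The motifs do not share letters where they were found. These are matches of letters, and binding was not measured.

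The values below are scaled log2 signals, that is, the log2 of the background-subtracted intensity of a spot divided by the 75th percentile of intensity on its array, controls left out. WT1 to WT3 and KO1 to KO3 name the mice in the order of their labels. Between 55.8 and 66.5% of the non-control spots of an array were well above background by the scanner software, fewest on the array of KO1, and no spot was saturated. The lowest signal that was still well above background lay between -6.26 and -5.75 in WT mice, at -4.60 in KO1, and at -5.87 and -5.96 in KO2 and KO3. The software marked 17.1% of the spots of WT3 and 15.1% of those of KO1 as not uniform or as outliers, and 4.87 to 6.12% on the other arrays. Marked spots were left out of the tests. WT1 and WT2 lay in the first row of the slide and the other 4 arrays in the second, so that a comparison within a row rests on WT3 alone. No probe matched miR-22 itself. *Mir22hg*, the transcript that hosts it, was at 1.20, 1.69 and 1.22 in WT1 to WT3 and at 2.02, 2.11 and 2.23 in KO1 to KO3, a difference of 0.75 (standard error 0.18, with limma's adjusted p = 0.108), and where its probe lies relative to the deletion is not given, so that it does not check the labels. All 11 brown adipocyte markers, among them *Ucp1*, were above background on all 6 arrays. With 3 arrays per genotype, the number of arrays sets the precision.

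**Figure D1:**
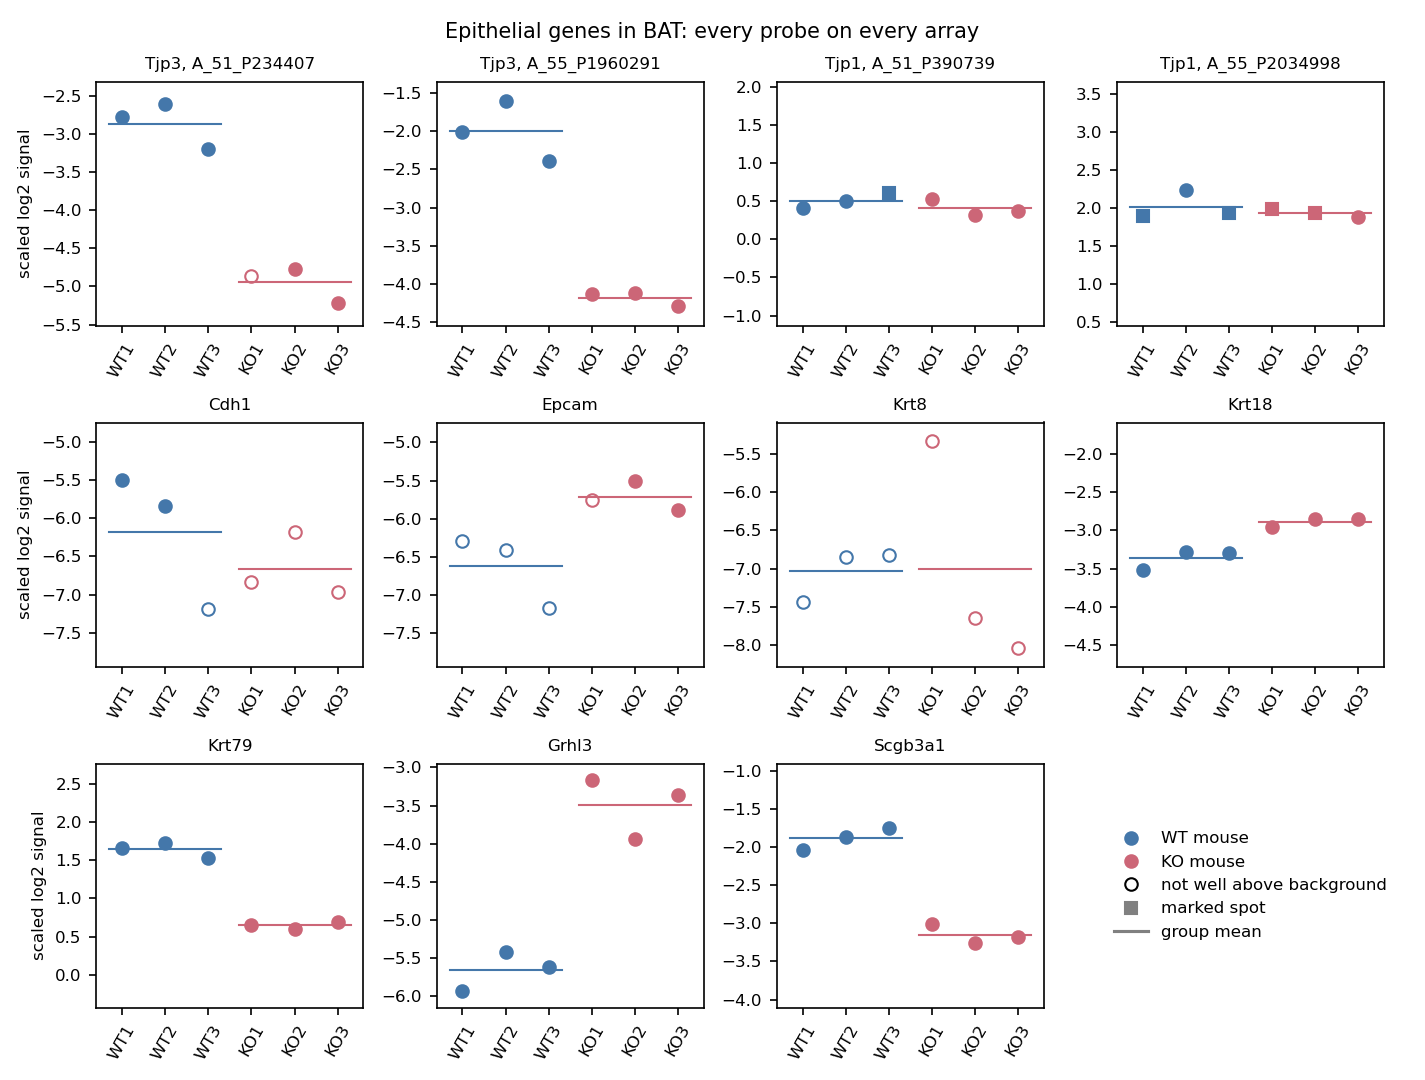
Scaled log2 signal of the 11 probes of the 9 genes on each of the 6 arrays (WT in blue, KO in red), with lines at the group means. Filled symbols are well above background, open ones are not, squares are marked spots, and each panel has its own range on the log2 axis. *Tjp3*, *Krt79* and *Scgb3a1* lie lower and *Grhl3* and *Krt18* higher in all 3 KO mice.

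*Tjp3* (chr10:81273188-81291581, GRCm38.p6) was lower in KO mice. Its brighter probe, A_55_P1960291, was at -2.01, -1.60 and -2.39 in WT1 to WT3 and at -4.13, -4.11 and -4.29 in KO1 to KO3. The lowest WT mouse lay 1.72 above the highest KO mouse on the log2 scale. The means were -2.00 ± 0.40 (SD, n = 3) in WT and -4.18 ± 0.10 (SD, n = 3) in KO mice, a difference of -2.18 (standard error 0.21), or 4.53-fold lower.

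The other *Tjp3* probe, A_51_P234407, gave -2.79, -2.62 and -3.20 for WT1 to WT3 and -4.87, -4.77 and -5.21 for KO1 to KO3. Both probes ordered the mice alike, with WT2 highest and KO3 lowest. The difference of this probe was -2.08, or 4.24-fold lower, and its spot on KO1 was not well above background. In units of intensity the brighter probe read 492, 473 and 305 in WT mice and 145, 152 and 81.5 in KO mice, with a scanner error of at most 49.5 units. With normexp background correction, in which an offset of 50 units is added before the log is taken, the difference of *Tjp3* was -1.50.

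*Tjp1* (chr7:65296165-65527850) showed no such difference. Probe A_51_P390739, which stood for the gene in the test, was at 0.40, 0.50 and 0.61 in WT mice, the last of these a marked spot, and at 0.53, 0.32 and 0.37 in KO mice. The groups overlapped. Without the marked spot the difference was -0.05 (standard error 0.16, 95% interval -0.43 to 0.34, adjusted p = 0.888 from limma). With 3 mice per group, a difference within that interval remains possible.

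The second probe of *Tjp1*, A_55_P2034998, read 1.89, 2.24 and 1.93 in WT mice and 1.99, 1.94 and 1.88 in KO mice. Of its 6 spots 4 were marked, so it was not tested, and its means differed by -0.08.

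The adhesion genes were dim. *Cdh1* (chr8:106603350-106670247) read -5.50, -5.84 and -7.19 in WT mice and -6.84, -6.18 and -6.96 in KO mice. It was well above background in WT1 and WT2 and in no KO mouse, and the ranges overlapped. The brighter group did not exceed the floor of the KO arrays, so no fold is given. The floor of an array is the lowest signal that was well above background there. Where a probe was below background on every array of a group, that group was set, array by array, to the higher of the floor and the probe's own signal. With dim probes included in the fit, the difference of *Cdh1* was -0.48 (standard error 0.48, adjusted p = 0.594 from limma).

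*Epcam* (chr17:87635979-87651127) read -6.29, -6.42 and -7.18 in WT mice and -5.75, -5.50 and -5.88 in KO mice. All 3 KO mice lay above all 3 WT mice, but only the spots of KO2 and KO3 were well above background. Against the floor of the WT arrays the KO mean was 1.26-fold higher. That mean includes the KO1 spot, which was not well above background, so this is not a lower bound. With dim probes included, the difference was 0.92 (standard error 0.28, adjusted p = 0.310 from limma). In intensity the spots read 11.1 to 25.4 units in WT mice and 27.1 to 58.1 units in KO mice, with scanner errors of 4.49 to 22.1 units.

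**Figure D2:**
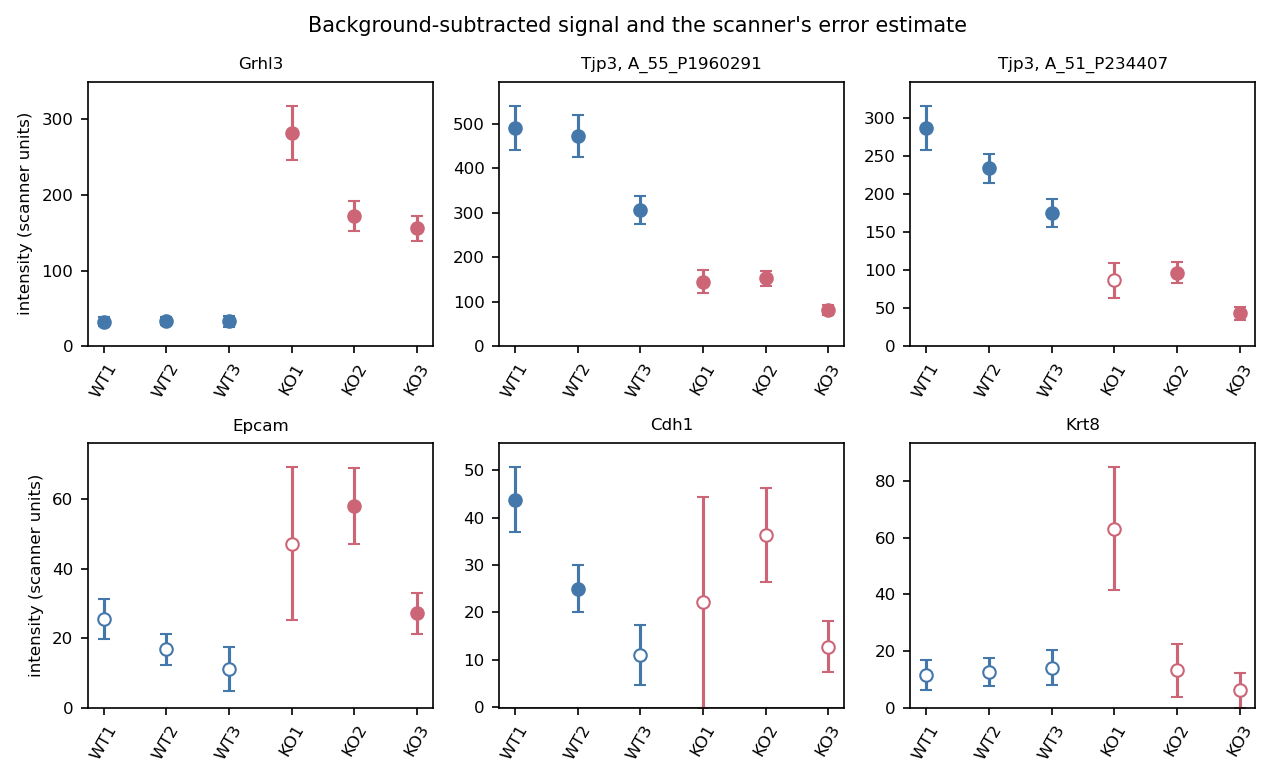
Background-subtracted intensity in scanner units on a linear axis, with the error that the scanner software gives for each spot, for *Grhl3*, both probes of *Tjp3*, *Epcam*, *Cdh1* and *Krt8* (WT in blue, KO in red, open symbols not well above background). The 3 WT spots of *Grhl3* read 32.6 to 33.5 units and the KO spots 156 to 283, while the error on *Cdh1* in KO1 is as large as its signal.

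The keratins did not share a direction. *Krt79* (chr15:101929332-101940324) was at 1.66, 1.73 and 1.53 in WT mice and at 0.65, 0.60 and 0.69 in KO mice. The WT mice spanned 0.20 and the KO mice 0.09 on the log2 scale, with a gap of 0.84 between them. The means were 1.64 ± 0.10 and 0.65 ± 0.04 (SD, n = 3 each), a difference of -0.99 (standard error 0.13), or 1.99-fold lower in KO mice. The gene had 1 probe, read at 2585 to 6282 units.

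*Krt18* (chr15:102028216-102032026) was at -3.52, -3.28 and -3.29 in WT mice and at -2.95, -2.85 and -2.85 in KO mice. Each KO mouse lay above each WT mouse, by at least 0.32. The means were -3.36 ± 0.14 and -2.88 ± 0.06 (SD, n = 3 each). The difference was 0.48 (standard error 0.14, 95% interval 0.16 to 0.80), or 1.40-fold higher, with an unadjusted p of 0.00957 and an adjusted p of 0.146 from limma. It did not pass the adjusted threshold of 0.05. The unadjusted call was lost with normexp correction, where the difference was 0.27, and with the slide row as a block, where it was 0.41.

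*Krt8* (chr15:101996711-102004342), the filament partner of *Krt18*, was well above background on 0 of the 6 arrays. It read -7.44, -6.85 and -6.83 in WT mice and -5.33, -7.65 and -8.04 in KO mice, and no fold is given. KO1, the highest of these, was the array with the highest floor. The 3 keratin genes lie in 1 stretch of chromosome 15, and *Krt79* and *Krt18* differed between the genotypes in opposite directions.

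*Grhl3* (chr4:135541887-135573632) was higher in KO mice. Its probe read -5.93, -5.42 and -5.61 in WT mice and -3.17, -3.93 and -3.36 in KO mice. The lowest KO mouse lay 1.49 above the highest WT mouse. The means were -5.66 ± 0.26 and -3.49 ± 0.40 (SD, n = 3 each), a difference of 2.17 (standard error 0.24), or 4.50-fold higher. All 6 spots were well above background. The WT spots read 32.6, 33.5 and 32.7 units, 4.73 to 6.33 times their scanner error, and the KO spots 283, 172 and 156 units. The WT spots read less than the normexp offset, and the difference under that correction was 1.03. In the 17 alternative settings the difference of *Grhl3* ranged from 1.03 to 2.39 and that of *Tjp3* from -2.40 to -1.50.

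*Scgb3a1* (chr11:49663595-49665118) lies on the same chromosome as the miR-22 gene. It read -2.04, -1.87 and -1.75 in WT mice and -3.00, -3.26 and -3.19 in KO mice. The gap between the groups was 0.96. The means were -1.89 ± 0.15 and -3.15 ± 0.13 (SD, n = 3 each), a difference of -1.26 (standard error 0.15), or 2.40-fold lower.

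**Figure D3:**
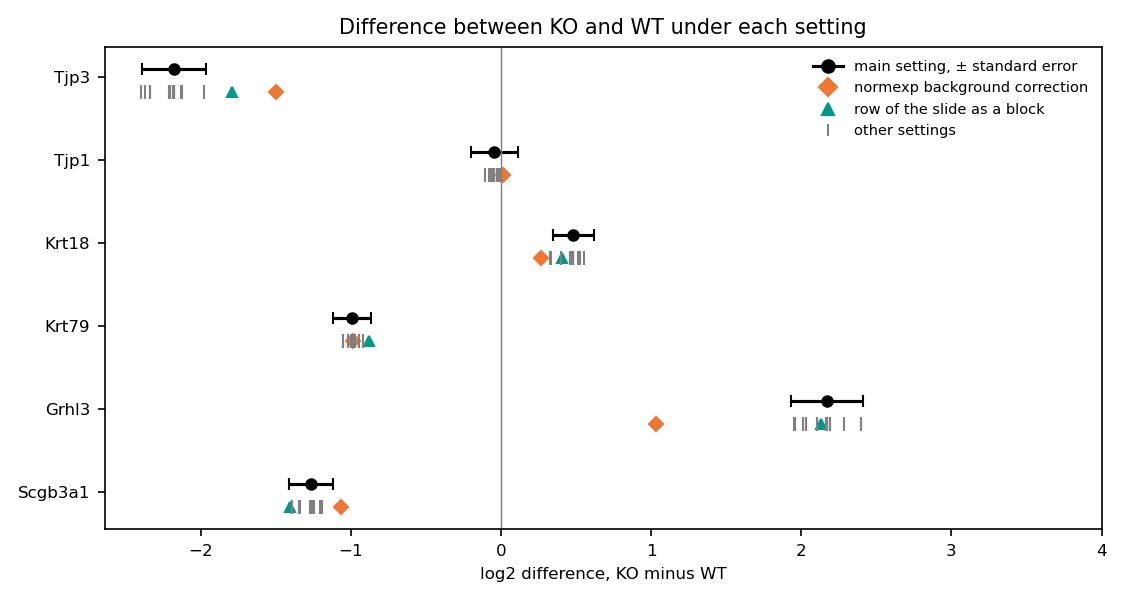
Difference between KO and WT mice on the log2 axis for the 6 tested genes. Black points are the main setting with its standard error, and the marks below them are the alternative settings, with normexp correction as orange diamonds and the row of the slide as green triangles. *Tjp3*, *Krt79* and *Scgb3a1* stay below 0 and *Krt18* and *Grhl3* above 0 in every setting, and *Tjp1* lies near 0. *Tjp3*, *Krt79*, *Scgb3a1* and *Grhl3* were selected on this difference, so nothing is read from their constant sign.

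Of the 9 genes, 6 passed the filter for dim probes, and 5 of these had unmarked values on all 6 arrays. Among the 5, the KO mice lay below the WT mice for 3 (*Tjp3*, *Krt79*, *Scgb3a1*) and above them for 2 (*Grhl3*, *Krt18*). Over all 11576 genes with 6 unmarked values, 14.7% had all KO mice below all WT mice and 14.2% had them above. As 4 of the 5 were selected on this difference, nothing is read from these counts.

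The genes whose profile over the 6 arrays came closest to *Tjp3* and *Grhl3* were looked up among 11575 genes, by the root mean square distance of the log2 values after each profile was centred. The profiles hold the difference between the genotypes on which *Tjp3* and *Grhl3* were selected. The nearest genes therefore share that difference by construction, and this is a description. For *Tjp3* they were *Tfr2*, the second transferrin receptor, at a distance of 0.27, *Gm30609* at 0.36 and *2210409D07Rik* at 0.36. *Tfr2* read -1.80, -1.40 and -2.71 in WT mice and -3.71, -3.60 and -3.96 in KO mice. Like *Tjp3* it was highest in WT2 and lowest in KO3. For *Grhl3* they were *AA467197* at a distance of 0.12, *Tsku*, a secreted leucine-rich protein, at 0.27 and *Tlr1*, a receptor for bacterial lipopeptides, at 0.29. *AA467197* read -2.99, -2.73 and -2.82 in WT mice and -0.53, -1.11 and -0.78 in KO mice. None of the 6 is an epithelial junction gene by the lists used here.

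A wider list of 108 epithelial genes, none of them among the 9, was read to place these values. It held tight junction, adherens junction and desmosome genes, keratins, regulators and repressors of the epithelial state, surface and protease genes, barrier genes, and secretoglobin and airway genes. Of the 108, 107 had a probe, and 50.5% of these were above background on all 6 arrays, against 60.3% of all genes with a probe. A tested list gene was counted by the probe that stood for it and all genes by their best probe. That can only raise the share of all genes. Under 3 arrays were reached by 37.4% of the list and by 31.3% of all genes. Testing was possible for 65.

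Of the 65 tested genes, 3 (4.62%) were lower and 12 (18.5%) were higher in KO mice at an unadjusted p under 0.05, where 8.82% of all 14711 tested genes were lower and 10% were higher. Of the 3 lower genes, *Scgb1c1* passed the filter only through the WT arrays, which leaves *Nectin2* and *Evpl*. None passed the adjusted threshold, which 0.0408% of all genes passed as lower and 0.143% as higher. The lowest adjusted p on the list was 0.0686 (*Ppl*, limma). The median difference was 0.13 on the list and -0.03 over all genes, and 33.8% of the list and 52.9% of all genes had a negative difference. In the 17 alternative settings and the main one the list median lay between 0.03 and 0.21 and the median of all genes between -0.07 and 0.14, both lowest with normexp correction and highest with no filter on dim probes. Among list genes with 6 unmarked values, the KO mice lay below the WT mice in 3 of 53 and above them in 10 of 53, where all genes gave the 14.7% and 14.2% above. *Scgb1c1*, which passed the filter only through the WT arrays, is again 1 of these 3. The count of higher genes was 7 of 56 without WT1 (8.4% of all genes) and 7 of 59 without KO2 (9.29%), and that of lower genes was 5 of 65 without KO1 (6.1%).

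Tight junction genes gave 4 higher and 0 lower genes among 15 tested, where 10% of all tested genes were higher and 8.82% lower. *Cldn1*, a claudin that seals the space between cells, read -2.76, -1.94 and -1.81 in WT mice and 0.04, -1.22 and 0.68 in KO mice. The KO mice varied by more than the gap to the WT mice, with KO2 the lowest of them. Its difference was 2.01 (standard error 0.50, adjusted p = 0.120), or 4.01-fold higher. *Pard6b*, of the polarity complex, differed by 1.07 (adjusted p = 0.0957), and *Marveld3* by 0.52 (adjusted p = 0.224) on a probe well above background on 5 arrays. The brightest tight junction gene, *F11r*, could not be tested because 3 of its spots were marked, and its means were 3.73 in WT and 3.66 in KO mice. *Ocln*, *Cldn4* and *Cldn8* were above background on 0 arrays.

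Of 9 adherens junction genes tested, 1 was lower and 2 were higher at an unadjusted p under 0.05, against 8.82% and 10% of all tested genes. *Nectin2* read 2.57, 2.49 and 2.33 in WT mice and 1.95, 1.66 and 0.87 in KO mice, a difference of -0.97 (standard error 0.28, adjusted p = 0.149). *Nectin3*, which pairs with it across cells, differed by 1.04 (standard error 0.29, adjusted p = 0.173). The KO mice lay below the WT mice for *Nectin2* and above them for *Nectin3*, with 2 marked spots of *Nectin3* counted here but left out of its test. *Afdn*, the afadin scaffold that ties nectins to actin, read -5.26, -5.36 and -4.81 in WT mice and -3.92, -4.01 and -2.82 in KO mice, a difference of 1.56 (standard error 0.34, adjusted p = 0.0962). A second *Afdn* probe was above background on 0 arrays. The second *Nectin2* probe differed by -0.43, and the other *Nectin3* probes by 0.89 and 0.44. *Ctnna1*, the brightest gene of this group, differed by -0.11 (adjusted p = 0.723).

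Desmosome genes gave 3 higher and 1 lower among 5 tested, where 10% of all tested genes were higher and 8.82% lower. With 5 genes these counts are a description. The other 7, among them *Dsp* and the desmogleins and desmocollins on the list, were dim. *Ppl* (periplakin) read -2.08, -2.40 and -2.18 in WT mice and -1.35, -1.31 and -0.90 in KO mice, a difference of 1.04 (standard error 0.18, adjusted p = 0.0686). Its partner *Evpl* (envoplakin) differed by -0.68 (standard error 0.20, adjusted p = 0.151). Both plakins of the cornified envelope thus lay on opposite sides of 0, and the difference between them was not tested. *Pkp2*, the brightest of the group, differed by 0.50 (adjusted p = 0.183) and *Jup* by 0.35 (adjusted p = 0.264).

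Among 17 further keratins 12 were dim and 0 of the 5 tested passed the unadjusted threshold. The brightest, *Krt10*, differed by -0.39 (adjusted p = 0.407). *Krt5* and *Krt14*, the pair of basal keratinocytes, were above background on 0 arrays.

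Of the 8 regulators tested, *Grhl1*, a relative of *Grhl3*, was the single gene past the unadjusted threshold, which 10% of all tested genes passed as higher. It read -4.07, -4.18 and -3.71 in WT mice and -3.10, -3.41 and -2.95 in KO mice, a difference of 0.83 (standard error 0.19, adjusted p = 0.106). All 3 KO mice lay above the WT mice, as for *Grhl3*. The third member of the family, *Grhl2*, differed by 0.32 and was above background on 3 arrays. *Trp63*, the brightest gene of this group, differed by -0.24 (adjusted p = 0.594).

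The 6 repressors of the epithelial state were all tested and had positive differences, with a median of 0.22. The median was 0.13 on the whole list and -0.03 over all genes, of which 52.9% had a negative difference. Of the 6, *Snai1* alone had an unadjusted p under 0.05, and the smallest difference was 0.03 (*Snai2*). *Snai1*, which binds the E-box form shown above, differed by 0.49 (standard error 0.16, unadjusted p = 0.0194, adjusted p = 0.190), and *Zeb2*, the brightest, by 0.15 (adjusted p = 0.669). No gene of the surface and protease group (8 tested) or of the barrier group (4 tested) passed the unadjusted threshold. Their brightest genes, *Spint2* and *Cdsn*, differed by 0.30 (adjusted p = 0.467) and 0.13 (adjusted p = 0.674).

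Of the secretoglobin and airway genes, *Scgb1c1* read -3.96, -3.88 and -3.83 in WT mice and -4.75, -5.97 and -6.19 in KO mice. It was well above background in all 3 WT mice and in no KO mouse, and so passed the filter only through the WT arrays. Against the floor of the KO arrays it was at least 3.01-fold lower, and no p is given for it. *Scgb3a2* differed by -0.13. *Lcn2* (lipocalin 2), the brightest of the group, differed by 0.57 (standard error 0.15, adjusted p = 0.128), with 0.61 on its other probe.

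**Figure D4:**
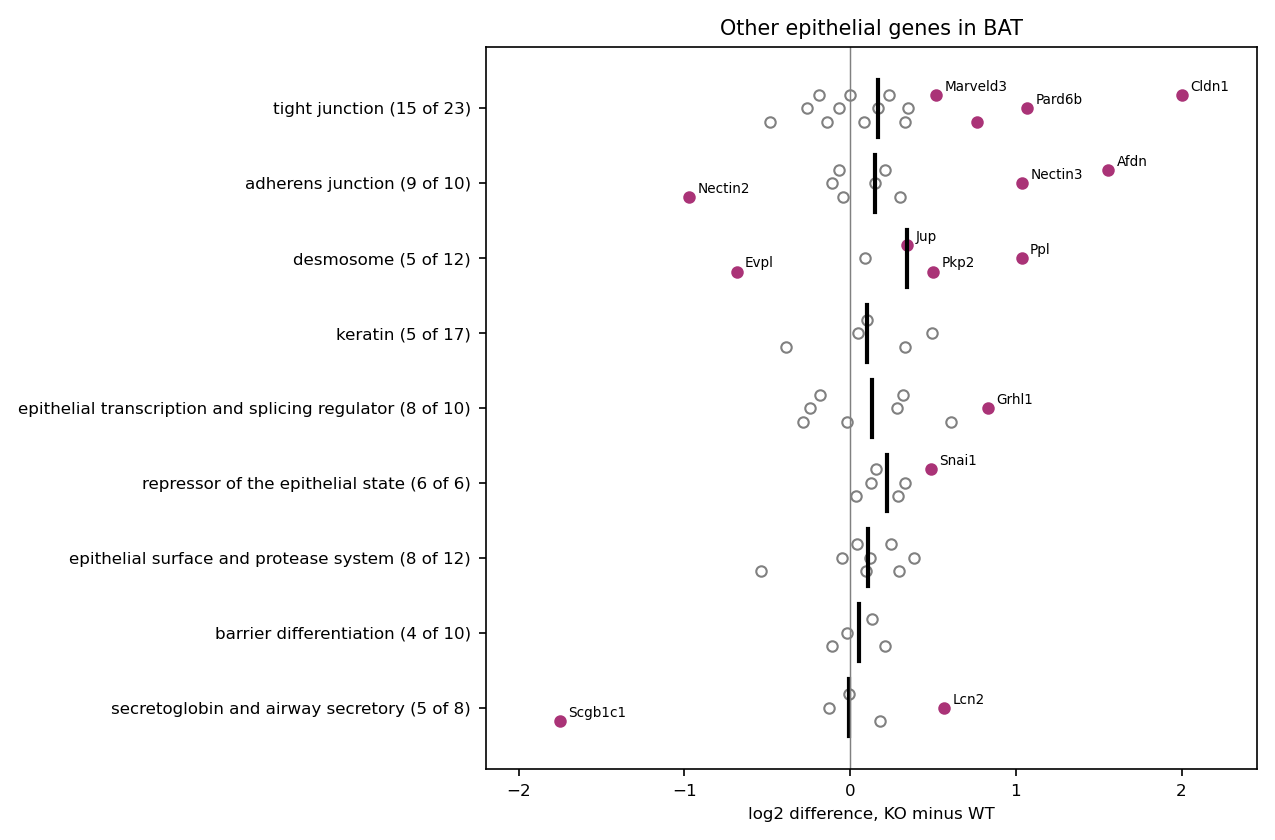
Difference between KO and WT mice on the log2 axis for the 65 tested genes of the wider epithelial list, by group, with the number tested of the number listed. Filled points, named for the genes given in the text, have an unadjusted p under 0.05 from limma and black bars are group medians. Of the filled points 12 lie above 0, with *Cldn1* highest, and 3 below. The point of *Scgb1c1* rests on KO spots below background and is not a measured difference.

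Markers of the cells that could bring epithelial RNA into the dissection were read beside these values, and their part in the differences was not tested. Of 9 markers of skin and hair follicle epithelium, 3 were above background on all 6 arrays, *Krt10*, *Trp63* and *Sfn*. Their differences were -0.39, -0.24 and -0.11, and none passed the unadjusted threshold. The other 6, *Krt5*, *Krt14*, *Krt15*, *Krt1*, *Dsg3* and *Dsc3*, were above background on none. The mean scaled log2 signal of that list was -4.96 to -4.76 in WT mice and -5.03 to -4.11 in KO mice. Of 11 markers of glandular and airway epithelium, 6 were above background on all arrays and *Cldn4*, *Elf3* and *Ehf* on none. The 6 were *Krt7*, *Krt19*, *Cldn7*, *Rab25*, *Scgb3a2* and *Bpifa1*, and of these *Scgb3a2* alone had a negative difference. The mean of the 11 markers was -5.42 to -5.06 in WT and -5.08 to -5.04 in KO mice. Of 9 mesothelial markers, 3 were above background on all arrays, *Lrrn4*, *Krt19* and *Rspo1*, and *Msln*, *Upk3b*, *Upk1b* and *Bnc1* were so on none. The mean of the 9 markers was -5.89 to -5.65 in WT and -5.67 to -5.32 in KO mice. The highest KO means of the skin list, -4.11, and of the mesothelial list, -5.32, were those of KO1, the array with the highest floor. These list means include markers below background, so they do not measure the amount of these cells.

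Of 7 sebaceous gland markers 6 were above background on all arrays, with *Awat1* on none, and their mean was -2.57 to -2.48 in WT and -2.82 to -2.37 in KO mice. *Elovl3*, 1 of these 6, is also on the brown adipocyte list, so these markers do not stand for sebaceous gland alone. *Mc5r*, a melanocortin receptor of sebocytes that is also known from fat, read -0.35, -0.19 and 0.74 in WT mice and -1.03, -2.43 and -1.47 in KO mice, without overlap between the groups. Of these 6 spots 2 were marked and left out of its test. Of the 6 tested markers of that list 3 had a positive difference and the median was 0.04. *Mc5r* (-1.68, adjusted p = 0.122 from limma) was lower and *Soat1* (0.49, adjusted p = 0.225) higher at an unadjusted p under 0.05. Other markers without overlap between the groups were *Rspo1*, *Pecam1*, *Cldn4*, *Dio2* and *Ppargc1a*. *Rspo1* of mesothelium was at -3.56 to -3.45 in WT and -4.46 to -3.57 in KO mice, a difference of -0.38 (adjusted p = 0.452 from limma). Of the 4 mesothelial markers tested, *Gpm6a* (-0.19) also had a negative difference, and *Lrrn4* (0.58) and *Krt19* (0.10) had positive ones. *Pecam1* of endothelium read -0.93 to 0.35 in WT and 0.36 to 0.63 in KO mice. Without its 1 marked spot the difference of *Pecam1* was 0.76 (adjusted p = 0.333 from limma). Of the 7 endothelial markers tested, 4 had a negative difference. *Cldn4* was higher in KO mice with both groups below background. *Dio2* and *Ppargc1a* of brown adipocytes were lower in KO mice but with 4 of 6 spots marked for each and so not tested. *Ppargc1a* read 3.39 to 3.76 in WT and 2.87 to 3.10 in KO mice and *Dio2* 3.13 to 3.58 and 1.83 to 3.07. The other 9 brown adipocyte markers overlapped. Of the 4 tested, *Prdm16* (0.55, adjusted p = 0.468 from limma) and *Elovl3* (0.10) had positive differences. *Cox7a1* (-0.78, adjusted p = 0.239) and *Plin1* (-0.16) had negative ones, and *Cox7a1* alone had an unadjusted p under 0.05. *Ucp1*, *Cidea*, *Cox8b*, *Adipoq* and *Fabp4*, untested for their marked spots, had lower means in KO mice. The mean of the list was 3.82 to 4.18 in WT and 3.35 to 3.96 in KO mice. The 8 endothelial markers were above background on all arrays, with a mean of 1.21 to 1.58 in WT and 1.36 to 1.45 in KO mice. The skeletal muscle mean ran from -5.67 in WT3 to 3.42 in KO2, with both genotypes on either side of 0. With WT3 and KO1 left out, the arrays with the most marked spots and the lowest muscle means, the difference was -2.40 for *Tjp3* and 2.03 for *Grhl3*.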

How the data were processed

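Total RNA of BAT from 6 mice, 3 of each genotype by the labels, was hybridized to 6 one-colour Agilent arrays. Per the file headers, the authors deposited intensity values of Agilent Feature Extraction (11.5.1.1 in the headers, 10.7 in the submitters' notes), background-subtracted and not scaled between arrays. They also deposited a table of log2 values for 27497 probes, with a normalization not given in the sources used here. No number pairs the mice, and the tests were unpaired.

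Each array's processed signal (59305 non-control spots, 56605 probes) was scaled to its 75th percentile and taken as log2, and marked spots were left out. Probes were matched to genes by RefSeq accession (33767 probes, GRCm38.p6). Testing required a signal well above background on 3 or more arrays, with at least 2 unmarked values per group, and the brightest such probe stood for a gene. The genotypes were compared in limma 3.58.1 (R 4.3.3) by lmFit followed by eBayes, two-sided, with Benjamini-Hochberg adjustment over 14711 genes. The methods name SAM at a p under 0.05 without saying whether it was adjusted, and SAM was not run here. The steps were tested on simulated data. Errors of single spots are those of the scanner software.

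The genes, the lists and the rule for named genes were chosen with earlier results of these data known. The rule named all 9 genes with every probe, each gene of the wider list past the unadjusted threshold (1 of them is counted but not reported here), the brightest gene of each group, the 3 nearest profiles of *Tjp3* and of *Grhl3*, and markers whose groups did not overlap. Other genes named were picked after their values were seen. Alternatives were quantile normalization, centring on detected probes, normexp with an offset of 50, the authors' log2 values, other filters, marked spots kept, the mean of a gene's probes, eBayes with trend and robust, the slide row as a block, and leaving out each array. Leaving out WT3 and KO1 together was chosen after seeing the data.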

Additional observations from a re-analysis of the deposited data

How the results depend on the processing

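No paired analysis was possible because the labels give the mice no shared numbers. Under 17 alternatives the directions of *Tjp3*, *Krt79*, *Scgb3a1*, *Grhl3* and *Krt18* did not turn. All of these but *Krt18* were selected on this difference in the same arrays, so nothing is read from their constant sign. With normexp correction, whose offset compresses dim signals, the difference was -1.50 for *Tjp3*, 1.03 for *Grhl3*, -1.07 for *Scgb3a1* and 0.27 for *Krt18*, and that of *Tjp1* turned to 0.012. With the slide row as a block, which sets the KO mice against WT3, it was -1.79 for *Tjp3*, -0.88 for *Krt79* and 0.41 for *Krt18*. *Tjp1* gave a value in 14 of the alternatives, with an adjusted p of 0.756 to 0.993, and the adjusted p of *Krt18* ran from 0.115 to 0.625.

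On the wider list, 3 genes were lower and 12 higher. With the authors' log2 values these were 5 and 7 of 61 (11.8 and 8.56% of all genes), with a filter of all 6 arrays 1 of 52 was lower (9.98%), with the row as a block 6 of 55 were higher (6.29%), and after adjustment 0 were lower and 0 higher. Leaving out 1 array gave 2 to 5 lower and 7 to 12 higher genes among 56 to 65 tested. In the same fits 5.6 to 10.3% of all genes were lower and 8.34 to 9.76% higher. The cause of these shifts was not tested. The signal over background limits *Cdh1*, *Epcam* and *Krt8* and 40 genes of the list.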
